A study of Mus musculus with 26 samples.

Results

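The genes described here are 10 imprinted genes that act on growth or differentiation: H19, Dlk1, Meg3, Peg3, Mest, Plagl1, Cdkn1c, Grb10, Ndn and Peg10. Every array probe set that carried one of these symbols and no other was taken, which gave 20 probe sets of 7 genes among 45037 probe sets and 17097 named genes. Meg3 was read by 10 probe sets, Grb10 by 3, Peg3 and Plagl1 by 2 each, and Dlk1, Cdkn1c and Ndn by 1 each. H19, Mest and Peg10 were not analysed here, since no probe set in the annotation carried their symbol alone. The samples were 26 mouse arrays of neurospheres (clusters of neural cells grown in suspension) and of tumors. They model the Group3 subtype of medulloblastoma, a cancer of the cerebellum that arises mostly in children and often overexpresses MYC. All groups were on the C57BL/6 strain and shared the genotype Trp53-/-, Cdkn2c-/-, so both tumor suppressors were deleted in the controls too. The 3 arrays of Trp53 Cdkn2c neurospheres carried that genotype alone and were labelled as granule neural progenitors. All 23 other arrays carried the genotype with Myc added: 7 of Group3 neurospheres, 5 of Group3 tumors, 3 of secondary Group3 tumors, and 8 of Group3 tumors treated with pemetrexed (2 arrays), with gemcitabine (3) or with the 2 combined (3). The first of these drugs is an antifolate and the second a nucleoside analogue; no dose, time, age, sex or way of bringing in Myc was given in the labels.

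An imprinted gene is expressed mainly from one parental chromosome, because a DNA methylation mark laid down in egg or sperm is kept in the body's cells. Many paternally expressed genes favour growth and many maternally expressed genes restrain it. Dlk1, a membrane protein related to the Notch ligands, is paternally expressed, and Meg3, a long non-coding RNA of the same chromosome 12 cluster, is maternally expressed. Peg3 and Plagl1 are paternally expressed zinc finger proteins, and Plagl1 can act as a transcription factor for other imprinted genes. Cdkn1c, an inhibitor of cyclin-dependent kinases, and Grb10, an adaptor that restrains insulin and growth factor receptors, are maternally expressed in most tissues, although Grb10 is paternally expressed in neurons. Ndn, which is paternally expressed in the Prader-Willi region, is a MAGE family protein of postmitotic neurons. The arrays measured total RNA and did not tell the parental copies apart.

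The start regions of the 3 genes whose values over the arrays were most alike are shown, read from RefSeq on mouse build GRCm38.p6. Each run is the 250 bases before the gene's first listed start, in the direction of transcription. Capitals mark matches to any of the motifs searched on both strands: CACGTG, the E-box that Myc can bind; GGGGCCCC, a Plagl1 motif; TGCCGC, the motif of the imprint keeper Zfp57; and TGACGTCA, the cyclic AMP response element, which was added after the sequences had been read. Meg3 is at chr12:109540746-109540995 on the plus strand, Peg3 at chr7:6730420-6730669 on the minus strand, and Plagl1 at chr10:13090582-13090831 on the plus strand.
Meg3: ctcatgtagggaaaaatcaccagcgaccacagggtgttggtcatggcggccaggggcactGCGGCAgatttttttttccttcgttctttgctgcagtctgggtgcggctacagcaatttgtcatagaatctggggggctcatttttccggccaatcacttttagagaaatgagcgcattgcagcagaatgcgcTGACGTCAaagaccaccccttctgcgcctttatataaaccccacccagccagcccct
Peg3: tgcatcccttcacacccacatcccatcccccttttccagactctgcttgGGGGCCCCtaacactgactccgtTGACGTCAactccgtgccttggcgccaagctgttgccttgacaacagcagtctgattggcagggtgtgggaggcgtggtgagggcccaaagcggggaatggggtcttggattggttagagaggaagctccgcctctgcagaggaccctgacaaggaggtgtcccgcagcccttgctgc
Plagl1: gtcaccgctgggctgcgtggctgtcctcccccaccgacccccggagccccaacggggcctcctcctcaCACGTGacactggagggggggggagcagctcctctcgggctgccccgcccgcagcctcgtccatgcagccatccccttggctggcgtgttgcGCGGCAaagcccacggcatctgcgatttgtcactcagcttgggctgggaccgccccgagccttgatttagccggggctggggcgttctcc
Meg3 held GCGGCA, the reverse complement of TGCCGC, beginning 190 bases before its start and TGACGTCA beginning 57 bases before it. In Peg3, GGGGCCCC began 201 and TGACGTCA 178 bases before the start. Plagl1 held CACGTG beginning 182 bases before the start and the reverse complement of TGCCGC beginning 90 bases before it. Among 32851 start regions of the same length, 6.02% held CACGTG, 0.889% GGGGCCCC, 8.68% TGCCGC and 1.55% TGACGTCA. The 3 runs held 10, 8 and 19 CG dinucleotides, against a median of 6. A second listed start of Meg3 is not shown. The 250 bases before it, at chr12:109545148-109545397 on the plus strand, held none of these motifs and 0 CG dinucleotides. Among the other genes analysed, the listed start of Dlk1, both listed starts of Grb10 and the listed start of Ndn held none of these motifs. No start region of Cdkn1c was available. Since TGACGTCA was picked after these sequences had been read, its share over all start regions tests nothing here. These matches describe letters and no binding was measured.

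Values are log2 intensities, and differences between group means are on the same log2 scale, each with the standard error (SE) of the limma fit over all 26 arrays. Array titles carried the letters dka (12 arrays) or mmm (14 arrays), whose meaning the labels do not give, and groups were compared only within one of these title codes, apart from 1 test of the difference between codes. Each code held arrays of Group3 neurospheres and of tumors; all drug-treated tumors were mmm, and the remaining groups dka. The median of an array lay between 4.65 and 4.82, and a value around or below it need not be signal of the gene, so a difference from such a value may be understated. The lowest value of a dka array was 2.56 to 2.69. In mmm tumors, drug-treated ones included, it was -0.41 to 0.06. In mmm neurosphere replicates 4 to 7 it was 0.18, 1.47, 0.82 and 2.64. A size found under one code should therefore not be read against a size under the other. Within mmm, the neurospheres also differed in range from the tumors and from each other, which limits the sizes of tumor minus neurosphere differences there. The labels do not say whether replicates were separate animals or cultures, so p values measure only the spread between arrays. In these bulk samples, fewer cells of a type and less RNA per cell cannot be told apart. Within groups the genes described here varied more than the probe sets as a whole. The median SD of their brightest probe sets was 0.84 in dka Group3 neurospheres and 2.05 in mmm Group3 neurospheres. Over all probe sets, dim ones included, it was 0.20 and 0.26, and brightness was not matched. The brightest probe set of each gene, taken on its mean over all arrays, stands for the gene unless another is named.

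**Figure D1:**
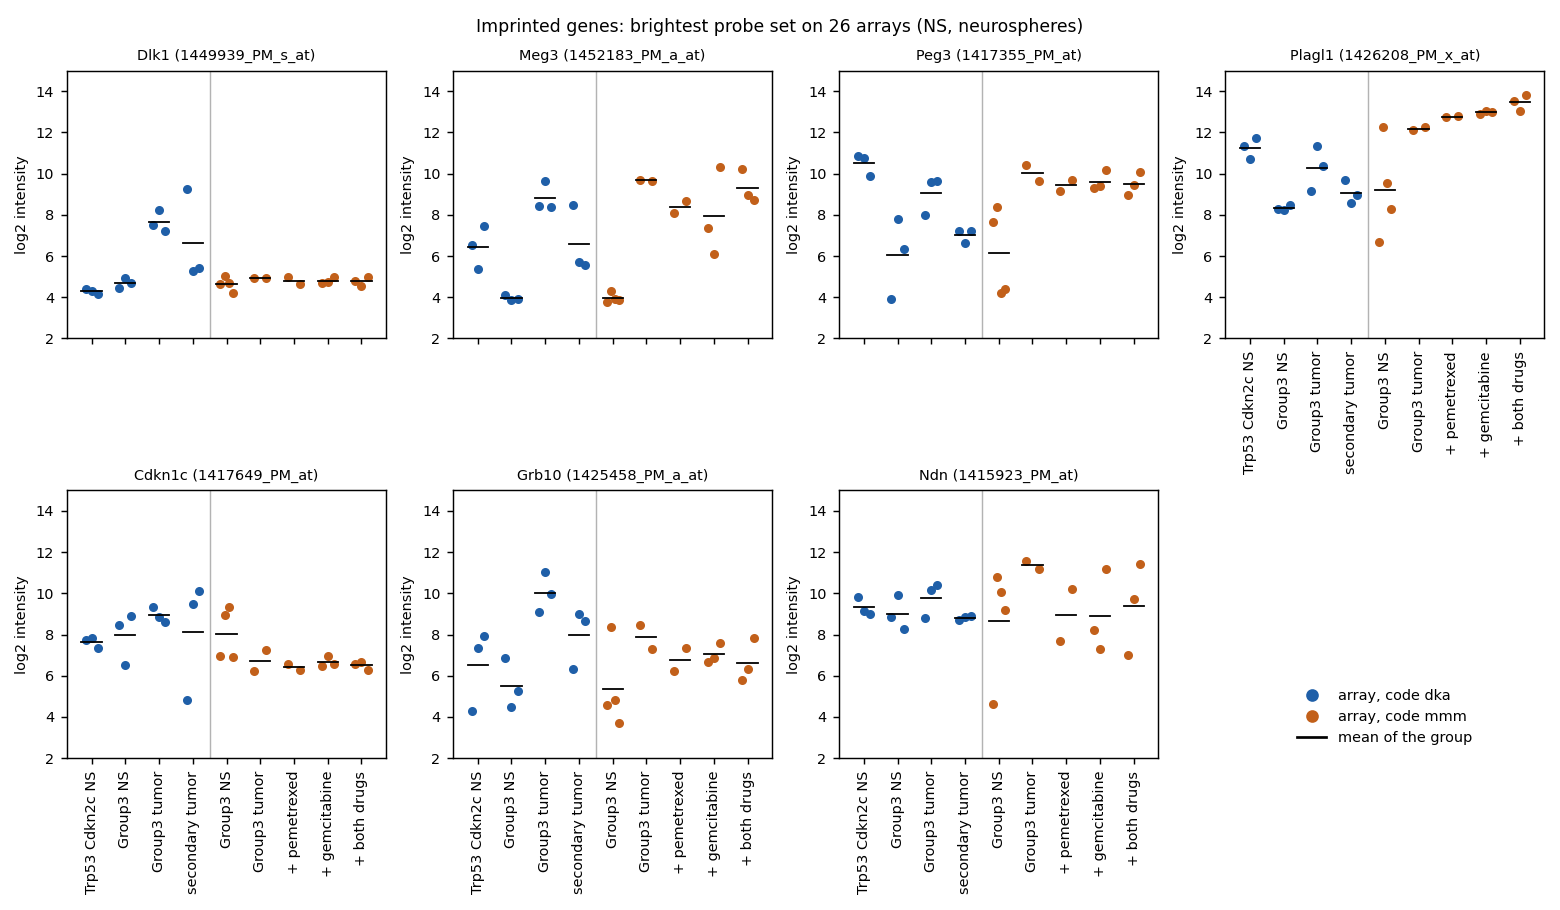
Log2 intensity (vertical axis) of the brightest probe set of each of 7 imprinted genes on every array, by group, with dka arrays left of the grey line and mmm arrays right of it. Points are arrays and black lines group means; Meg3 lay between 3.76 and 4.32 on all 7 arrays of Group3 neurospheres and higher on every other array of the same code.

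Group3 neurospheres were first set against Trp53 Cdkn2c neurospheres. By the labels they differ in the Myc genotype, but cell type markers differed between them too, as given below. Genotype and cell type cannot be told apart here. Peg3, Plagl1 and Meg3 fell, and no member rose. Of the 20 probe sets, 5 fell at a limma adjusted p under 0.05, while 10.4% of all probe sets fell and 9.77% rose. The median difference of the 20 was -1.02, against 0.04 over all probe sets. Peg3 read 10.84, 10.76 and 9.89 in Trp53 Cdkn2c neurospheres and 3.94, 7.82 and 6.33 in Group3 neurospheres. All 3 control arrays were above all 3 Group3 arrays, and the fall was 4.47 (SE 0.94, limma adjusted p = 0.0017). The other Peg3 probe set also fell, by 3.87 (SE 0.70, limma adjusted p = 0.0005). Plagl1 read 11.34, 10.73 and 11.71 against 8.29, 8.23 and 8.49. Its groups did not overlap and it fell by 2.92 (SE 0.84, limma adjusted p = 0.0169). The other Plagl1 probe set had means of 4.33 and 3.88, under the array medians, with overlapping arrays, and did not pass. Meg3 read 6.51, 5.35 and 7.46 against 4.09, 3.86 and 3.93, so that all Group3 arrays were under the array medians. It fell by 2.48 (SE 0.82, limma adjusted p = 0.0375), and 2 of its 10 probe sets passed. The Meg3 call was lost when either of Trp53 Cdkn2c neurosphere replicates 1 and 3, or any 1 of the 3 Group3 arrays, was left out (limma adjusted p from 0.0753 to 0.160). Without Trp53 Cdkn2c neurosphere replicate 3 its difference was -1.97, 3 of the 20 probe sets passed, and Plagl1 did not. In that refit 17.0% of all probe sets were called.

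The other genes did not pass between the neurosphere groups. Dlk1 was near the array medians on all 6 arrays, at 4.41, 4.31 and 4.17 against 4.43, 4.94 and 4.71. Grb10 read 4.29, 7.35 and 7.93 against 6.84, 4.46 and 5.26, and Cdkn1c 7.72, 7.82 and 7.33 against 8.47, 6.54 and 8.88; in both genes the groups overlapped. Ndn stayed high throughout, at 9.83, 9.15 and 9.01 against 8.84, 9.91 and 8.25. Markers of other cells moved with this comparison. Of 13 measured granule lineage genes, 11 fell; Atoh1, the defining transcription factor of granule progenitors, had a mean of 9.51 in Trp53 Cdkn2c neurospheres and 3.68 in Group3 neurospheres. The granule progenitor label of the first group thus matched its markers, with Barhl1 at a mean of 9.67 against 4.03. Of 19 measured microglia genes 11 fell, and the mean of that list lay between 5.67 and 6.00 against 3.90 to 4.06. Of 15 neuron genes 4 fell and 1 rose. Of 11 astrocyte genes 3 rose, with a list mean of 5.31 to 6.01 against 7.25 to 7.53. The part of these cells in the falls of Peg3, Plagl1 and Meg3 was not tested.

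Tumors were then set against neurospheres of the same genotype. Under both codes Meg3 and Peg3 were higher in tumors. Dlk1 and Grb10 passed only under dka and Plagl1 only under mmm. No probe set of Dlk1, Grb10 or Plagl1 passed the test of the difference between codes given below, so these calls do not show that the codes differ. Under dka, 10 of the 20 probe sets rose and none fell, with 6.53% of all probe sets rising and 7.28% falling. Under mmm, 13 rose and none fell, with 8.10% of all probe sets rising and 9.35% falling. The median difference of the 20 was 1.83 under dka and 3.63 under mmm, against 0.01 and -0.06 over all probe sets; since 10 of the 20 probe sets read Meg3, these medians lean on 1 gene.

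**Figure D2:**
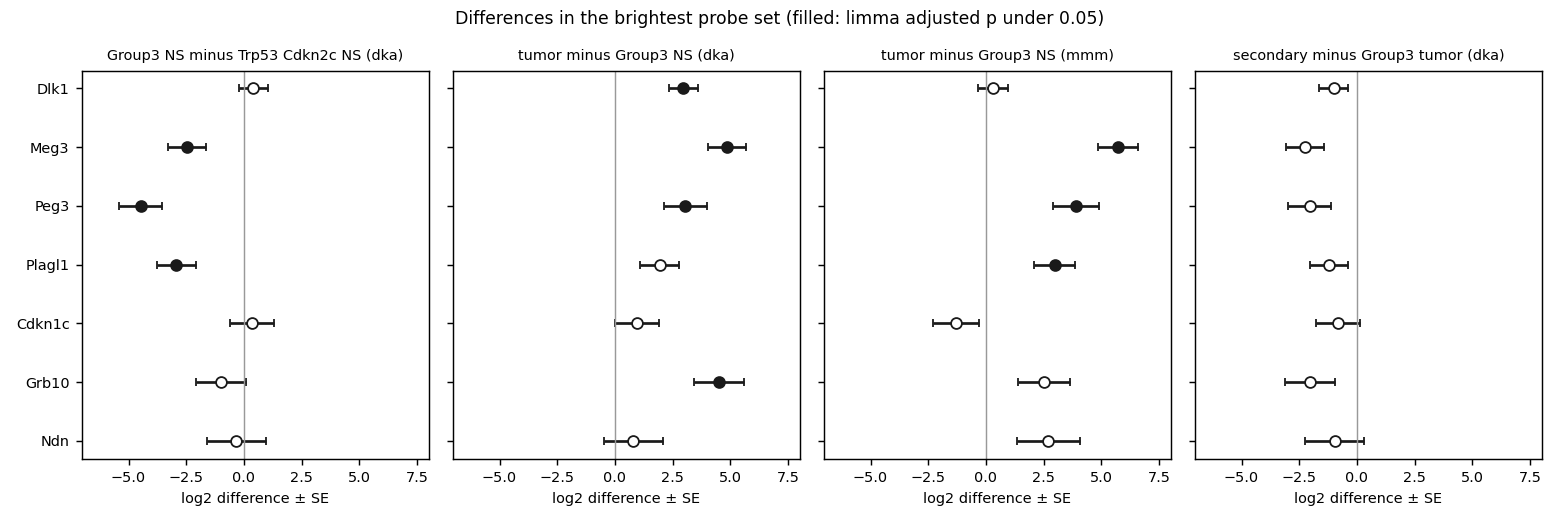
Log2 difference with SE (horizontal axis) for the brightest probe set of each gene in 4 comparisons; filled points had a limma adjusted p under 0.05. Meg3 and Peg3 were filled in both tumor panels, Dlk1 and Grb10 only in the dka panel and Plagl1 only in the mmm panel, and no point was filled for secondary tumors.

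Meg3 read 4.09, 3.86 and 3.93 in dka neurospheres and 8.42, 9.66 and 8.38 in dka tumors. No arrays overlapped, and it rose by 4.86 (SE 0.82, limma adjusted p = 0.00048). Under mmm it read 3.76, 4.32, 3.90 and 3.86 in neurospheres and 9.69 and 9.65 in tumors. It rose there by 5.71 (SE 0.87, limma adjusted p = 0.00019). Among the dka groups the order of Meg3 levels was tumors (mean 8.82), secondary tumors (6.58), Trp53 Cdkn2c neurospheres (6.44) and Group3 neurospheres (3.96). Neighbours in that order overlapped except the last pair. Among the mmm groups the order was tumors (9.67), both drugs (9.32), pemetrexed (8.39), gemcitabine (7.94) and neurospheres (3.96). Dlk1, the protein-coding partner of Meg3 in the cluster, read 4.43, 4.94 and 4.71 in dka neurospheres and 7.50, 8.24 and 7.22 in dka tumors. It rose by 2.96 (SE 0.63, limma adjusted p = 0.0031). Under mmm it lay between 4.20 and 5.04 in neurospheres and at 4.93 and 4.95 in tumors. All 14 mmm arrays, drug-treated ones included, had Dlk1 between 4.20 and 5.04, around the array medians. The difference between codes in the change of Dlk1 was -2.66 (SE 0.91, limma adjusted p = 0.0847), which did not pass. Rian and Mirg, non-coding RNAs of the same cluster, rose under mmm, Rian by 4.60 (limma adjusted p = 0.0042) and Mirg to a mean of 5.72 from 3.73 (limma adjusted p = 0.0096); under dka neither passed.

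The 10 Meg3 probe sets did not move alike. The test of the difference between codes (the tumor minus neurosphere change under mmm, less that under dka) was passed by 5 of the 20 probe sets, all of them Meg3 and all higher, with 2.99% of all probe sets higher and 3.36% lower. This test sets sizes of both codes against each other, so a greater change under mmm and the wider value range of the mmm arrays cannot be told apart; the same holds for levels of both codes given side by side. These 5 were 1428765_PM_at at 5.06 (SE 1.23, limma adjusted p = 0.0213), 1429257_PM_at at 4.91 (SE 1.28, limma adjusted p = 0.0290), 1429256_PM_at at 4.61 (SE 1.22, limma adjusted p = 0.0315), 1428764_PM_at at 4.97 (SE 1.35, limma adjusted p = 0.0353) and 1452906_PM_at at 4.63 (SE 1.33, limma adjusted p = 0.0436). None of them rose in dka tumors, where 4 of the other 5 did. The 5 probe sets that passed are called the first set below and the remaining 5 the second set; since the split was made on these values, what follows describes it and tests nothing. Averaged over the first set, dka neurospheres read 4.14, 4.24 and 4.14 and dka tumors 4.82, 5.49 and 4.57. Averaged over the second set, the same tumors read 7.53, 8.61 and 7.38. In mmm tumors both were high, at 10.01 and 9.57 for the first set and 9.09 and 8.92 for the second. Where in the Meg3 transcript each probe set lies was not examined. The calls of the first set rest on the 2 mmm tumors: without tumor replicate 4 or replicate 5 none of the 20 passed, with 1.30% and 1.36% of all probe sets still called. The 5 differences were then 4.20 to 5.23 (limma adjusted p from 0.0859 to 0.164). Leaving out dka tumor replicate 3 or neurosphere replicate 2 kept 1 call, neurosphere replicate 1 or 3 kept 2, and mmm neurosphere replicate 7 kept 3. These refits called 3.67% to 5.78% of all probe sets. Leaving out dka tumor replicate 1 kept 2 of the Meg3 calls, with 4.88% of all probe sets called. In that refit 2 Grb10 probe sets were called lower, 1430164_PM_a_at at -2.93 (limma adjusted p = 0.0223) and 1425457_PM_a_at at -0.70 (limma adjusted p = 0.0445).

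**Figure D3:**
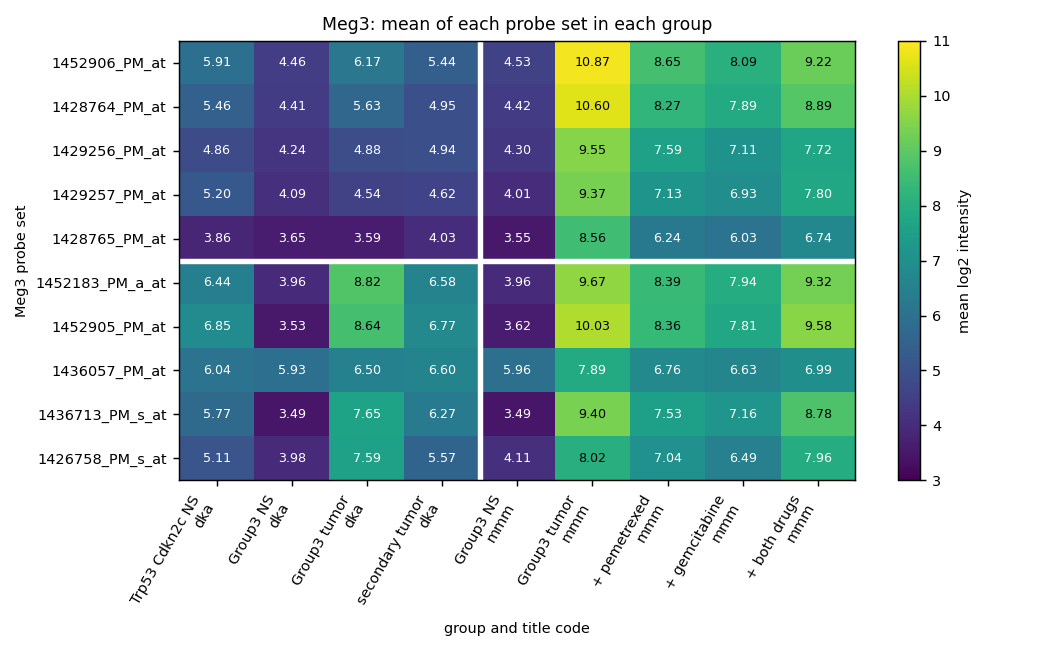
Mean log2 intensity (colour and printed value) of each of the 10 Meg3 probe sets (rows) in each group (columns), with dka groups left of the white line. The upper 5 probe sets had a limma adjusted p under 0.05 for the difference between codes; they were at means of 3.59 to 6.17 in dka tumors and 8.56 to 10.87 in mmm tumors.

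Like the first set, markers of neurons and of several other cell classes had higher means in mmm tumors than in dka tumors. Among the dka tumors the order was not shared. Replicate 2 was the highest in the first set, at 5.49. It was the lowest of them in the neuron (5.55), astrocyte (4.96) and oligodendrocyte (4.48) lists and the highest in the choroid plexus list (4.75). The mean of the 15 neuron genes was 8.80 and 8.04 in mmm tumors, against 4.03 to 5.21 in mmm neurospheres, 5.55 to 6.09 in dka tumors and 4.38 to 4.74 in dka neurospheres. Under mmm 11 of the 15 rose; under dka 5 rose and 1 fell. The list itself was split in dka tumors. Stmn2, a microtubule regulator of growing axons, rose by 7.47 (limma adjusted p = 5.69e-05) and the neurofilament gene Nefh by 5.08 (limma adjusted p = 0.000275). Gad1, an enzyme of GABA synthesis, fell by 4.34 (limma adjusted p = 0.0215) to a mean of 3.81, and Calb1, a marker of Purkinje cells, had a mean of 3.26, under the array medians. In mmm tumors Gad1 had a mean of 13.08 and Calb1 of 9.58. The mean of the 11 astrocyte genes was 9.48 and 9.0 in mmm tumors, against 6.07 to 8.28 in mmm neurospheres, 4.96 to 7.06 in dka tumors and 7.25 to 7.53 in dka neurospheres. Of these 11, 4 rose and 1 fell under mmm, and 3 fell under dka. The mean of the 12 oligodendrocyte genes was 8.73 and 7.37 in mmm tumors, against 4.45 to 6.16 in mmm neurospheres, 4.48 to 8.14 in dka tumors and 5.61 to 5.76 in dka neurospheres; 6 rose under mmm, and 1 rose and 2 fell under dka. For the difference between codes the median was 3.08 over the astrocyte list, 1.56 over the oligodendrocyte list, 1.42 over the neuron list and 1.38 over the microglia list, against -0.06 over all probe sets. Microglia genes rose in 12 of 19 under dka and 19 of 19 under mmm, and endothelial genes in 13 of 16 and 11 of 16. The part of neurons, glia, microglia or vessels in the Meg3 values was not tested.

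**Figure D4:**
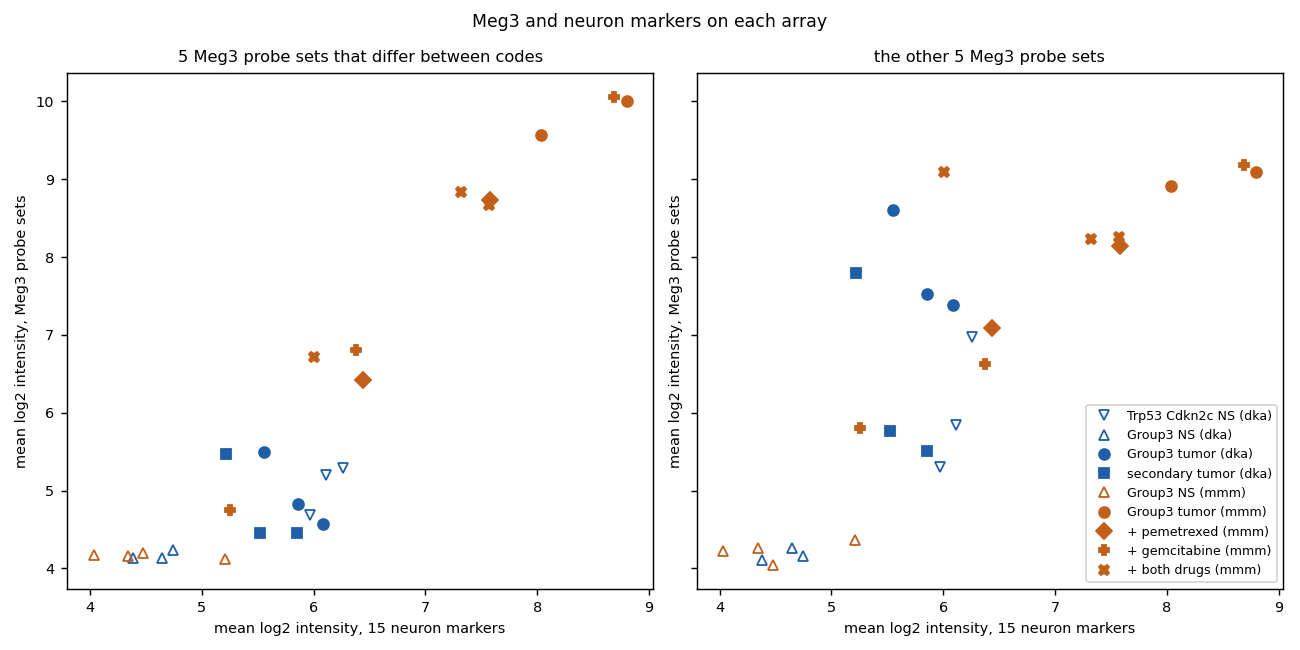
Mean log2 intensity of Meg3 probe sets (vertical axis) against the mean of 15 neuron markers (horizontal axis) on each of 26 arrays; left, the 5 probe sets that passed the test of the difference between codes, right, the other 5. Open symbols are neurospheres, blue dka and orange mmm; the dka tumors read 4.57 to 5.49 on the left and 7.38 to 8.61 on the right.

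Among the zinc finger genes, Peg3 read 3.94, 7.82 and 6.33 in dka neurospheres and 8.01, 9.57 and 9.65 in dka tumors. The groups did not overlap, and it rose by 3.05 (SE 0.94, limma adjusted p = 0.0344). Its other probe set rose by 2.35 (SE 0.70, limma adjusted p = 0.0293) with overlapping arrays. Neither passed without tumor replicate 2 or 3 or neurosphere replicate 1 or 3, and the other probe set did not pass when only dka arrays were fitted (limma adjusted p = 0.0750). Under mmm, Peg3 read 7.64, 8.37, 4.21 and 4.42 in neurospheres and 10.44 and 9.66 in tumors, a rise of 3.89 (SE 0.99, limma adjusted p = 0.0099). Without tumor replicate 4 that rise was 3.50 (limma adjusted p = 0.123), and without replicate 5 it was 4.28 (limma adjusted p = 0.0570). Plagl1 spread over a wide range in mmm neurospheres, at 6.70, 12.28, 9.54 and 8.30, against 12.13 and 12.24 in tumors. Neurosphere replicate 5 was above both tumors; the rise was 2.98 (SE 0.89, limma adjusted p = 0.0251), and it no longer passed without tumor replicate 4 or 5 or neurosphere replicate 4 or 7, or when only mmm arrays were fitted. Under dka, Plagl1 read 8.29, 8.23 and 8.49 in neurospheres and 9.15, 11.33 and 10.37 in tumors, with no overlap. The difference was 1.94 (SE 0.84, limma adjusted p = 0.143). Fitted on the dka arrays alone it passed (limma adjusted p = 0.0225). The other Plagl1 probe set passed under neither code. Its neurosphere and tumor means were 3.88 and 4.28 under dka and 4.05 and 4.26 under mmm, all under the array medians.

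Grb10, the receptor adaptor, read 6.84, 4.46 and 5.26 in dka neurospheres and 9.07, 11.05 and 9.95 in dka tumors. No arrays overlapped and it rose by 4.50 (SE 1.07, limma adjusted p = 0.0072); its other probe sets rose by 2.56 and 0.64. The smaller of these rises was between means of 3.78 and 4.42, under the array medians, and did not pass without tumor replicate 2 (0.43, limma adjusted p = 0.0836). Under mmm it read 4.56, 8.36, 4.82 and 3.72 in neurospheres and 8.45 and 7.31 in tumors. Neurosphere replicate 5 was within the range of the tumors, and the difference of 2.52 (SE 1.14, limma adjusted p = 0.138) did not pass; without that array it was 3.52 (limma adjusted p = 0.0175). Of 8 measured genes for receptors and partners of Grb10, Irs1, an insulin receptor substrate, fell by 1.89 in dka tumors (limma adjusted p = 0.0201), and the other 7 did not pass there; none of the 8 passed under mmm. Against Trp53 Cdkn2c neurospheres, dka tumors had 5 of the 20 probe sets higher and none lower, with 6.52% of all probe sets higher and 8.06% lower. These were Dlk1, which rose by 3.36 (SE 0.63, limma adjusted p = 0.0010), all 3 of Grb10, the brightest by 3.50 (SE 1.07, limma adjusted p = 0.0320), and 1 of Meg3. This count depended on single arrays. It was 1, Dlk1 alone, without dka tumor replicate 2 (12.4% of all probe sets called) or Trp53 Cdkn2c neurosphere replicate 1 (10.9%). It was 3 without tumor replicate 3 (11.9%) or Trp53 Cdkn2c neurosphere replicate 2 (9.99%). It was also 3 when only dka arrays were fitted (13.8%).

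Cdkn1c and Ndn passed in no comparison. Cdkn1c read 8.47, 6.54 and 8.88 in dka neurospheres and 9.33, 8.87 and 8.58 in dka tumors, and 6.95, 8.97, 9.32 and 6.90 in mmm neurospheres against 6.22 and 7.25 in mmm tumors. The differences were 0.97 (SE 0.94, limma adjusted p = 0.591) and -1.30 (limma adjusted p = 0.419). Its level in the 10 mmm tumors, drug-treated ones included, lay between 6.22 and 7.25. Ndn read 8.84, 9.91 and 8.25 in dka neurospheres and 8.79, 10.16 and 10.41 in dka tumors. Under mmm it was widely spread, at 4.64, 10.80, 10.04 and 9.21 in neurospheres against 11.58 and 11.18 in tumors, a difference of 2.71 (SE 1.35, limma adjusted p = 0.186). Of the Cip/Kip inhibitors related to Cdkn1c, Cdkn1b fell between the neurosphere groups by 0.67 (limma adjusted p = 0.0295).

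Secondary tumors were set against the dka tumors. None of the 20 probe sets passed in limma, while 2.28% of all probe sets did; at an unadjusted p under 0.05 there were 7 of 20, against 13.9% of all. The 3 secondary tumors did not resemble each other in 3 genes. Dlk1 read 9.23, 5.27 and 5.43, against 7.50, 8.24 and 7.22 in the dka tumors. Replicate 1 was above all of those tumors and replicates 2 and 3 under all of them. Meg3 read 8.47, 5.71 and 5.56, and only replicate 1 was within the range of the tumors. Cdkn1c ran the other way, at 4.81, 9.46 and 10.10, with replicate 1 under every other dka array and replicates 2 and 3 above all 3 dka tumors. Replicate 1 was also the highest of the 3 in the choroid plexus list, with a mean of 5.21 over 8 genes against 3.48 and 3.98, and the lowest in 7 of the 9 lists, with the widest gap in the microglia list, at 5.97 against 7.22 and 6.48. These 7 included the granule lineage list, at 5.55 against 5.88 and 6.29, and the neuron list, at 5.22 against 5.52 and 5.85. The part of these cells was not tested. Without replicate 1 Dlk1 fell by 2.31 in secondary tumors (SE 0.25, limma adjusted p = 5.575e-05), the only probe set of the 20 to pass, with 1.66% of all probe sets called. Without dka tumor replicate 1, which leaves 2 tumors, 3 of the 20 fell: 1 of Peg3 by 3.41 and 2 of Grb10 by 2.55 and 0.59. In that refit 2.22% of all probe sets were called. Over all 3 arrays a group, Peg3 read 7.21, 6.66 and 7.19 in secondary tumors, under the lowest dka tumor at 8.01, with a difference of -2.05 (SE 0.94, limma adjusted p = 0.329). Grb10 read 6.30, 9.01 and 8.64, likewise under all dka tumors, with a difference of -2.04 (SE 1.07, limma adjusted p = 0.415).

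Against dka neurospheres, secondary tumors had 4 probe sets higher and none lower, with 11.1% of all probe sets higher and 10.7% lower. Meg3 rose by 2.62 (SE 0.82, limma adjusted p = 0.0266), as did 2 more of its probe sets, and Dlk1 rose by 1.95 (SE 0.63, limma adjusted p = 0.0303). Without secondary tumor replicate 1 only 1 Meg3 probe set remained, with 18.1% of all probe sets called, and Dlk1 was at 0.65 (limma adjusted p = 0.0850). Leaving out neurosphere replicate 3 also left 1 call (17.7% of all probe sets called), and leaving out replicate 1 (18.5%) or 2 (17.0%) left 2. The brightest Meg3 probe set did not pass without secondary tumor replicate 1 or without any 1 of the neurosphere arrays (limma adjusted p from 0.0554 to 0.176). As the mean of all its probe sets, Meg3 was at 1.40 (limma adjusted p = 0.168). Dlk1 was lost in the same 4 cases (limma adjusted p from 0.0544 to 0.0889) and when only dka arrays were fitted (limma adjusted p = 0.128).

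**Figure D5:**
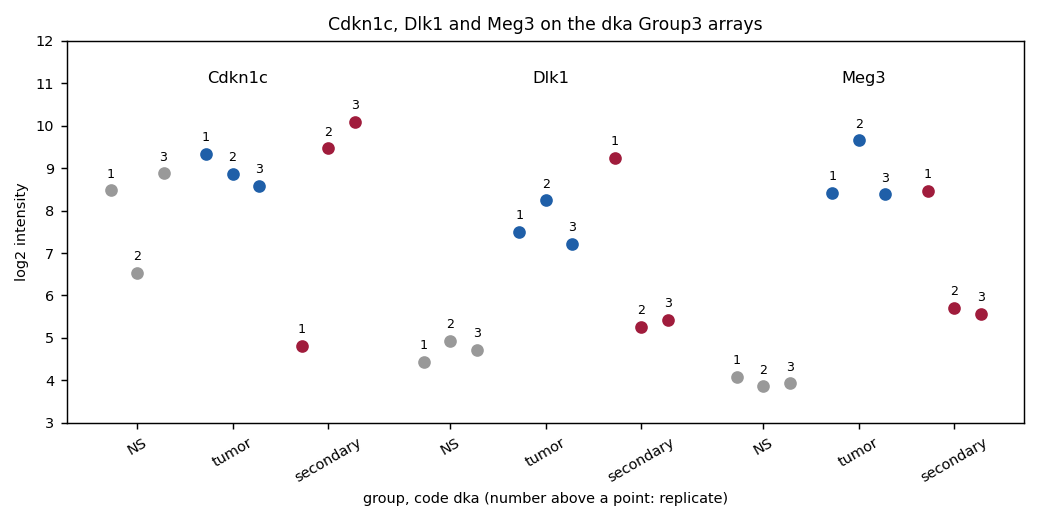
Log2 intensity (vertical axis) of the brightest probe sets of Cdkn1c, Dlk1 and Meg3 on the dka arrays of Group3 neurospheres (NS, grey), tumors (blue) and secondary tumors (red); each point is 1 array, with its replicate number above it. Secondary tumor replicate 1 was at 4.81 for Cdkn1c, 9.23 for Dlk1 and 8.47 for Meg3, away from replicates 2 and 3 in each.

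The drug-treated tumors were compared with the 2 mmm tumors whose labels name no drug, which all 3 of these comparisons share. In limma none of the 20 probe sets passed for pemetrexed (0.00444% of all probe sets called), gemcitabine (0.00888%), both drugs (0.0688%), both drugs against pemetrexed (0.00666%) or both drugs against gemcitabine (0.00%). At an unadjusted p under 0.05 there were 2, 8, 2, 1 and 2 of the 20, against 4.38%, 8.35%, 7.41%, 2.62% and 5.48% of all probe sets. Meg3 read 9.69 and 9.65 without drugs, 8.08 and 8.69 with pemetrexed, 7.38, 6.11 and 10.33 with gemcitabine, and 10.23, 8.97 and 8.74 with both. The gemcitabine arrays spread on both sides of the tumors without drugs, and the difference was -1.73 (SE 0.92, limma adjusted p = 0.644). All 8 of the probe sets with an unadjusted p under 0.05 for gemcitabine read Meg3. Without gemcitabine replicate 3, the same number, 8 Meg3 probe sets, fell by 1.77 to 4.27 at a limma adjusted p under 0.05, while the share of all probe sets called went from 0.00888% to 1.56%. The neuron list had the same order over the gemcitabine arrays, at 6.38, 5.26 and 8.69, against 8.80 and 8.04 without drugs; it was 6.44 and 7.58 with pemetrexed and 6.01, 7.57 and 7.32 with both. This order was shared by 5 of the other 8 cell class lists, among them the astrocyte list, at 8.14, 6.63 and 9.65 against 9.48 and 9.0, the oligodendrocyte list, at 6.98, 6.29 and 8.44 against 8.73 and 7.37, and the microglia list, at 7.34, 6.86 and 7.84 against 7.50 and 7.70. In the first set of Meg3 probe sets the gemcitabine arrays read 6.81, 4.76 and 10.06. Replicate 1 of both drugs read 6.72 in the first set and 9.09 in the second, the widest gap among mmm arrays, and had the lowest neuron, astrocyte, oligodendrocyte and endothelium lists of its group. The part of any of these cells in these values was not tested.

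Plagl1 had a higher mean in every drug group than in the tumors without drugs, without passing. It read 12.13 and 12.24 without drugs, 12.73 and 12.80 with pemetrexed, 12.90, 13.02 and 12.99 with gemcitabine, and 13.50, 13.06 and 13.81 with both. No drug-treated array overlapped the tumors without drugs, and no drug group overlapped its neighbour in this order. Such separation from the 2 tumors without drugs was not particular to Plagl1. Of the 20 probe sets, 15 did not overlap them with pemetrexed, 5 with gemcitabine and 10 with both drugs. The share over all probe sets was not counted, and 10 of the 20 probe sets read Meg3. Groups this small can separate by chance, so neither these counts nor the separation of Plagl1 can be weighed here. The differences from tumors without drugs were 0.58 (SE 1.03), 0.78 (SE 0.94) and 1.27 (SE 0.94), with limma adjusted p values of 0.9999, 0.892 and 0.855. The SE pools the spread of all 26 arrays, among which the mmm neurospheres had an SD of 2.36 for this probe set and the drug groups and their controls 0.05 to 0.37. The dimmer Plagl1 probe set read 4.28 and 4.24, then 4.91 and 4.73, then 4.59, 5.17 and 4.55, then 5.48, 5.20 and 6.12. It had a difference of 1.34 (SE 0.30, limma adjusted p = 0.159) with both drugs. Peg3 lay between 8.96 and 10.15 in all 8 drug-treated tumors against 10.44 and 9.66 without drugs, and its differences of -0.62 (SE 1.15), -0.44 (SE 1.05) and -0.56 (SE 1.05) did not pass. Ndn was split within each drug group, at 7.69 and 10.22, at 8.21, 7.29 and 11.16, and at 7.03, 9.70 and 11.41.

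The likeness of genes over the arrays was described by Pearson's r over the 26 arrays after each code's mean had been subtracted, among 10157 genes brighter than the median. The arrays share groups, so r describes these samples only. Meg3 was most like Rian, its neighbour, at r = 0.92, and then Rapgef1 at 0.91. Peg3 was most like Septin4 (r = 0.91) and Ebf1 (0.89), Plagl1 like Ankrd44 (0.91) and Ly6e (0.90), Grb10 like Dll3 (0.84) and Syt4 (0.80), and Dlk1 like Pcsk4 (0.81) and Wdr5 (0.80). Among the members themselves, Peg3 and Plagl1 were the most alike (r = 0.76), followed by Meg3 and Plagl1 (0.71) and Meg3 and Peg3 (0.65). Dlk1 and Meg3 were at 0.50. Cdkn1c had negative values with 4 of the other 6, down to -0.34 with Meg3.

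Other imprinted genes were read from a list, with 49 of 65 measured. In Group3 against Trp53 Cdkn2c neurospheres 6 rose and 7 fell, where 20.1% of all probe sets, or 22.6% of genes read by their brightest probe set, passed in either direction. Igf2, a growth factor imprinted beside H19, fell by 3.41 (limma adjusted p = 0.0016), Snurf fell by 2.10 and Snrpn fell by 1.54. Usp29, which lies beside Peg3, fell by 1.65, and Pon2 rose by 2.10. In tumors 3 rose and 5 fell under dka, and 14 rose and 2 fell under mmm. The share of all probe sets that passed was 13.8% and 17.5%, and of genes 18.6% and 22.1%, so the neurosphere and dka counts were near the share over all genes. Igf2 rose under both codes, by 5.39 (limma adjusted p = 4.79e-05) and 3.04 (limma adjusted p = 0.0078). Sgce fell under both, by 1.83 and 1.92. Usp29 rose under mmm by 2.82 and Rasgrf1 by 5.20; Slc38a4, an amino acid transporter, rose under dka by 3.77. In secondary tumors Slc38a4 fell by 2.92 against the dka tumors (limma adjusted p = 0.0045), the only one of the 49 to pass. None of the 49 passed under the drugs. Among 15 measured genes that keep or read imprints, Dnmt1, the maintenance DNA methyltransferase, fell by 0.58 and Ctcf by 1.04 between the neurosphere groups. Dnmt1 rose by 0.48 in dka tumors and fell by 0.83 in mmm tumors, a difference between codes of -1.32 (limma adjusted p = 0.0038), with the limit given for that test. In the Notch pathway, to which Dlk1 is related, 7 of 8 listed genes were measured. Notch1 rose by 3.45 from Trp53 Cdkn2c to Group3 neurospheres and fell by 3.15 in dka tumors. The Notch target gene Hes1 fell by 3.10 there and fell by 2.65 in mmm tumors. Of the 7, 3 fell in dka tumors and 1 in mmm tumors, and none rose in either. Any relation to Dlk1 was not tested.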

How the data were processed

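RNA from 26 samples was measured on mouse Affymetrix HT MG-430 PM arrays. The values deposited by the authors are log2 intensities, made with RMA and Partek 6.6 per the submitters' processing notes; Trizol extraction and NuGEN amplification and labelling are named per the labels' protocols. The genome build of the array design is not given in the sources used here. RMA shares its normalization over arrays processed together, and whether both title codes were processed together is not stated. The deposited values were used unchanged. Of 45141 probe sets 104 controls were left out, and 551 with several symbols were tested but not named.

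One fit of all arrays in limma 3.58.1 (R 4.3.3), with 9 means for group and title code, gave 12 comparisons, adjusted by Benjamini-Hochberg over 45037 probe sets at 0.05. The members and gene lists were chosen with earlier results of these data known. Named genes are all members, list genes past 0.05, up to 6 a direction, and the 2 genes most alike to each member; the text names some of these. The script was tested on simulated data. Alternatives were fits within a code, quantile normalization, no dim probe sets, trended robust variances, 1 value per gene and leaving out each array. Groups of 2 to 4 arrays limit precision. The lists held 65 other imprinted genes, imprint keepers, Cip/Kip inhibitors, Grb10 and Notch partners and markers of 9 cell classes. Figures were drawn with matplotlib 3.10.9.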

Additional observations from a re-analysis of the deposited data

Results flagged for a closer look

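Meg3 probe set 1426758_PM_s_at had 1 array far from the others in mmm Group3 neurospheres: replicate 6 read 3.86 and the other 3 read 4.16 to 4.22, a gap of 0.837 of the group's range. It was the only such array among 20 tests, about 1 in 20 of which would single out an array by chance. The tests shared arrays, so they were not independent of each other. All 4 values were under the array medians.

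The tumor minus neurosphere change of 5 Meg3 probe sets came out greater under mmm than under dka in a test of the difference itself: 5.06 for 1428765_PM_at, 4.91 for 1429257_PM_at, 4.61 for 1429256_PM_at, 4.97 for 1428764_PM_at and 4.63 for 1452906_PM_at, on the log2 scale. The other 5 Meg3 probe sets did not pass that test, with differences from 0.30 to 1.75. Since the mmm arrays had a wider range of values than the dka arrays, the code and the size of the change cannot be told apart here, and without mmm tumor replicate 4 or 5 none of the 5 passed.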

How the results depend on the processing

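No paired analysis was possible because the labels carry no replicate numbers. Under quantile normalization, without dim probe sets and with trended robust variances, every count of member probe sets past 0.05 stayed within 1.5 times its value, and no difference turned its direction once called. Fitting the arrays of one code alone gave 3 in place of 5 probe sets for dka tumors against Trp53 Cdkn2c neurospheres; the cause was not tested. Leaving out 1 array at a time, which leaves fewer samples, gave ranges of 3 to 5 probe sets for Group3 against Trp53 Cdkn2c neurospheres, 7 to 10 for dka and 10 to 14 for mmm tumors against neurospheres, 1 to 5 for dka tumors against Trp53 Cdkn2c neurospheres, 0 to 3 for secondary against dka tumors, 1 to 4 for secondary tumors against neurospheres, 0 to 8 for gemcitabine, and 0 to 5 for the difference between codes. The other 4 drug comparisons gave 0 each time. Over these refits the share of all probe sets called was 15.3% to 17.1% for Group3 against Trp53 Cdkn2c neurospheres. It was 9.61% to 12.2% for dka and 6.71% to 18.6% for mmm tumors against neurospheres. For dka tumors against Trp53 Cdkn2c neurospheres it was 9.99% to 12.4%. Secondary tumors had 1.53% to 2.22% against dka tumors and 17.0% to 19.6% against neurospheres. Gemcitabine had 0.00% to 1.56% and the difference between codes 1.30% to 8.24%. As 1 value per gene from the mean of its probe sets, Meg3 was at -1.38 (limma adjusted p = 0.185) between the neurosphere groups and 1.40 (limma adjusted p = 0.168) for secondary tumors against neurospheres, and passed in neither. Meg3 passed for dka tumors against Trp53 Cdkn2c neurospheres under quantile normalization (limma adjusted p = 0.0442), without dim probe sets (limma adjusted p = 0.0379) and without Trp53 Cdkn2c neurosphere replicate 3 (limma adjusted p = 0.0444). Values near the array medians limit what the size of a difference can show.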
